A study of Mus musculus with 24 samples.

Results

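A diet given to the fathers was compared for its trace in 2 generations of offspring, and the quantity described here is the difference between the diet effect in F1 hippocampus, (MD F1 minus CD F1), and the diet effect in F2 hippocampus, (MD F2 minus CD F2). All 24 samples of the series entered, 6 arrays in each of 4 groups, and a probe was tested when its signal was well above background on all 24 arrays. This rule kept 24087 of 39429 probes, with 13941 gene symbols. C57BL/6J sires ate a control diet (CD) or a methyl donor diet (MD, 3MS ZM) for 6 weeks and were then mated with 129S6/SvEv females, which gave the F1 animals, labelled congenic C57BL/6J x 129S6/SvEv hybrids. Per kg of chow, the methyl donor diet was enriched in choline and betaine (15 g of either), methionine (7.5 g), zinc (150 mg), folic acid (15 mg) and vitamin B12 (1.5 mg). F1 sons of MD or CD sires, mated with CD F1 females, gave the F2 animals (mixed C57BL/6J x 129S6/SvEv hybrids). All F1 and F2 animals themselves ate the control diet, so MD names the exposure of the father in F1 and of the grandfather in F2, although 1 label field of the F2 samples says fathers. The labels give an age of 4 weeks, whereas the study's text speaks of adult mice. Each array holds RNA from a pool of 4 mice, and nothing states how pools relate to litters, so that p-values measure the spread between these pools.

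Methionine, choline, betaine and folate feed the one-carbon cycle, which makes S-adenosylmethionine, the donor of methyl groups for DNA, histones and many other molecules. A trace of a diet eaten by the sire can pass to F1 with his sperm and seminal fluid, and to F2 with the sperm of his sons. A gene whose F1 and F2 responses were alike has a difference near 0 on the scale used here, and a positive difference means that the diet effect was higher in F1 than in F2. Motile cilia, which give the leading group of genes below, are beating projections of ependymal cells, which line the ventricles beside the hippocampus, and are also found in small tufts on choroid plexus epithelium, the tissue that secretes cerebrospinal fluid. Their shaft, the axoneme, is built from doublet microtubules, dynein arms that bend it, and radial spokes and linkers that tie it together.

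Signals are given as normalized log2 values, so that 1 unit is a doubling. Median intensity per array before normalization ranged from 167 to 318 in F1 and from 148 to 262 in F2, and between 27383 (MD F2 replicate 3) and 37013 spots per array were well above background. MD F1 replicate 6 correlated with the other F1 arrays at a mean r of 0.978, against 0.993 to 0.995 for the remaining F1 arrays, and the F2 arrays had 0.986 to 0.990. The mean log2 signal of 4 Y-linked genes minus that of Xist lay between -2.32 and 0.106 in the F1 pools. Within F1 it was -2.32 to -1.92 in CD and -2.19 to 0.106 in MD, so that the MD pools reached higher values. In F2 it was 5.15 to 7.63 in 9 pools (4 CD and 5 MD) and -7.69 to -7.43 in 3 pools (CD F2 replicates 3 and 5 and MD F2 replicate 6). Each generation had its own 3 slides and its own scan day, whereas every slide held 2 arrays of each diet. The sex measure of the pools and the cross (congenic F1 and mixed F2 hybrids) also differed with generation. Generation therefore cannot be told apart from slide, scan day, sex measure and cross.

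The diet response differed between the generations at 22 probes, 0.0913% of those tested (limma, FDR under 0.1 with Benjamini-Hochberg adjustment over all 24087 probes). The unadjusted p was under 0.05 for 2474 probes, or 10.3%, of which 1052 were higher and 1422 lower in F1. In all 22 called probes the estimated diet effect had opposite signs in F1 and F2. Of these, 10 probes were up in MD F1 and down in MD F2 and 12 probes the other way round. Some of the F2 effects lay within their standard errors of 0, such as 0.08 (SE 0.115) for A_55_P1955497 and 0.10 (SE 0.129) for A_55_P2032362. Among the 2474 probes, 2205 had opposite signs, while 191 moved the same way with the larger effect in F1 and 78 moved the same way with the larger effect in F2. The contrast favours effects of opposite sign, and over all tested probes 5144 were up in F1 and down in F2 and 5852 the reverse. The median difference over all tested probes was -0.01, with a median diet effect of 0.00 in F1 and 0.01 in F2. The number of calls was not stable. It fell to 6 with scaling to each array's 75th percentile (4 higher and 2 lower in F1), to 2 without normalization (0 higher), to 6 with another background correction and to 5 without the filter on dim probes.

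Single arrays also moved the number of calls by more than 1.5 times. It was 4 without CD F1 replicate 2 or CD F1 replicate 4, 7 without MD F2 replicate 4, 8 without MD F2 replicate 5, 9 without CD F2 replicate 3 and 10 without CD F1 replicate 1. It was 11 without CD F1 replicate 3 or MD F1 replicate 4, 12 without CD F1 replicate 6 or MD F1 replicate 5, 13 without MD F1 replicate 3, CD F2 replicate 1 or CD F2 replicate 2, and 14 without MD F2 replicate 6. Larger numbers were found without CD F2 replicate 4 (65), CD F2 replicate 6 (73) or MD F2 replicate 2 (112), and 88 probes were called without MD F1 replicate 6, CD F2 replicate 6 and MD F2 replicate 3 together, which had stood apart. With array weights estimated from the data, where MD F1 replicate 6 received the lowest weight, there were 1930 calls. The direction of the 22 called probes was the same in all 880 values obtained under alternative settings, a stability that the choice of probes by the same contrast partly fixes. In the leave-one-out fits the genes Crygn, Cfap161, Stk32c and Ccdc153 were called in all 24, and Stk32c was called under all 40 alternative settings.

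**Figure D1:**
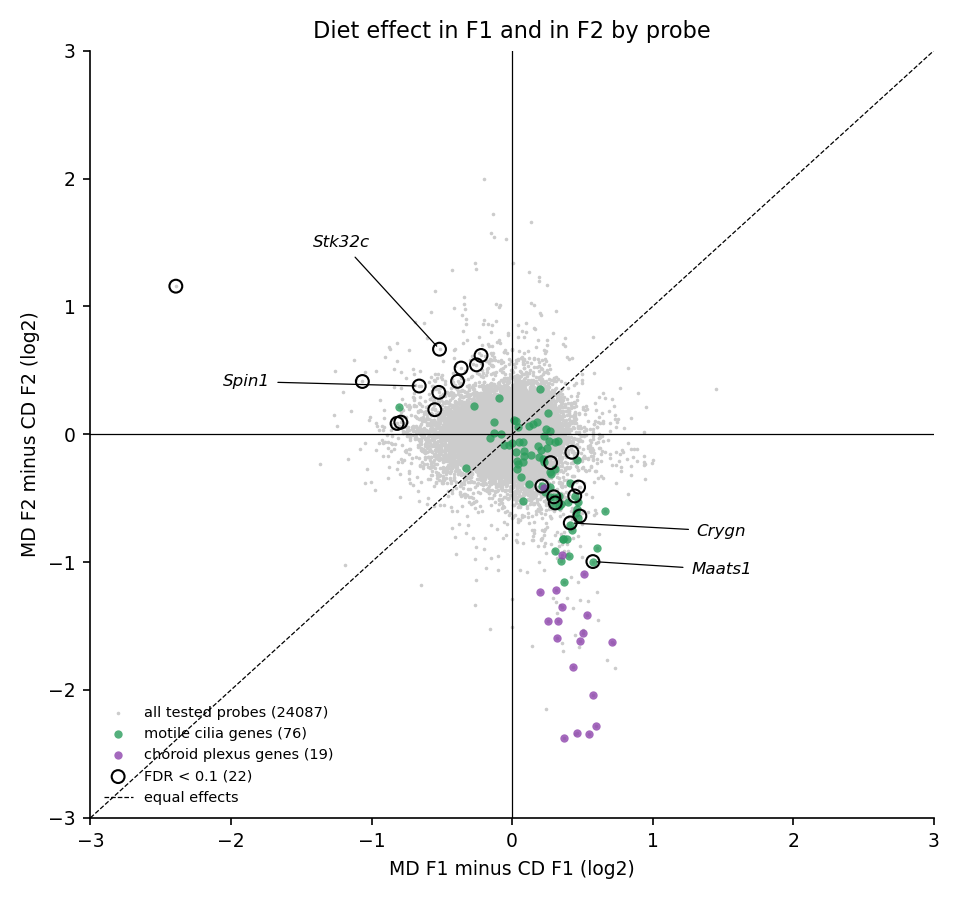
The diet effect in F1 (x axis, log2) against the diet effect in F2 (y axis, log2), 1 point per tested probe, with motile cilia genes in green, choroid plexus genes in purple and the 22 called probes circled; 1 probe lies outside the plotted range. Called probes lie only at the upper left and lower right, and the 19 choroid plexus genes lie to the lower right with F2 effects down to below -2.

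Of the 22 called probes 14 carry a gene symbol. The 9 that were higher in F1 include 4 from a list of motile cilia genes (Cfap161, Cfap45, Dnah10 and Maats1), together with Ccdc153, a coiled-coil protein known as a marker of ependymal cells, Stk33, a protein kinase needed for the sperm flagellum, Crygn, a crystallin, Krt15, a keratin, and Ppp1r13l, an inhibitor of p53-driven cell death. The 5 that were lower in F1 were Stk32c, Tdg, Man1a, Spin1 and Pdzd2. With 1 probe per gene, the called share was 0.0933%.

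Crygn, which encodes gamma-N crystallin, had the smallest p. The CD F1 arrays had log2 signals of 5.81 to 6.29 with a median of 6.08, and the MD F1 arrays 6.25 to 6.82 with a median of 6.50. In F2 the order was turned, with 7.23 to 7.73 (median 7.41) in CD F2 and 6.50 to 6.98 (median 6.76) in MD F2. The F1 groups touched at their edges and the F2 groups were fully apart. The diet effect was 0.41 in F1 and -0.69 in F2 (SE 0.109 each), a difference of 1.11 (SE 0.154, limma FDR 0.00525), equal to a 2.15-fold ratio of the fold changes. The CD F2 arrays also lay above all F1 arrays, whereas the MD F1 and MD F2 arrays overlapped, with the higher median in MD F2. This comparison of generations cannot be told apart from slide, scan day, sex measure and cross.

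Cfap161, which encodes a protein of the ciliary axoneme, had a log2 signal of 7.26 to 7.72 (median 7.39) in CD F1, against 7.72 to 8.06 (median 7.82) in MD F1. In CD F2 it lay between 7.53 and 7.87 (median 7.72), against 7.03 to 7.57 (median 7.16) in MD F2. The groups overlapped only at their edges in each generation. The effects of 0.45 and -0.48 were of nearly equal size with opposite sign (difference 0.93, SE 0.14, FDR 0.00977, limma). Ccdc153 had a higher signal, and its CD and MD arrays did not overlap in either generation. It had 9.82 to 10.16 (median 10.02) in CD F1, 10.35 to 10.67 (median 10.46) in MD F1, 9.91 to 10.90 (median 10.37) in CD F2 and 9.36 to 9.88 (median 9.81) in MD F2, with a difference of 1.12 (SE 0.186, FDR 0.0203, limma). Ccdc153 also stands in the gene list that the study took from these F1 arrays, so that its direction in F1 is not independent evidence.

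Maats1, also called Cfap91, encodes a protein at the base of the radial spokes and had the largest positive difference of the called genes (1.57, SE 0.332, FDR 0.0958, limma). Its signal was 7.07 to 7.47 (median 7.39) in CD F1 and 7.56 to 8.43 (median 7.86) in MD F1, without overlap. The F2 arrays spread more widely, with 6.53 to 7.87 (median 7.42) in CD F2 and 5.94 to 7.27 (median 6.10) in MD F2, where replicate 2 gave the highest value. Dnah10, a heavy chain of the inner dynein arms, had effects of 0.30 in F1 and -0.49 in F2 (difference 0.79, SE 0.163, FDR 0.0853). Cfap45, which lies inside the doublet microtubules, had effects of 0.21 and -0.40, and its F2 arrays did not overlap. Maats1 lost its call without any 1 of 19 arrays, Dnah10 without any 1 of 18 and Cfap45 without any 1 of 12.

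The remaining genes with a higher response in F1 belong to no common list. Stk33 had an F1 effect of 0.43 and an F2 effect of -0.14 (difference 0.57, SE 0.111, FDR 0.0597), so that most of its difference came from F1. A second Stk33 probe had a difference of 0.75 (FDR 0.156). Krt15 had 0.47 in F1 and -0.41 in F2, and Ppp1r13l had 0.27 and -0.22. The Ppp1r13l values were tight, at 9.66 to 9.85 in CD F1 against 9.94 to 10.22 in MD F1.

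Among genes with a lower response in F1, Stk32c, a brain-expressed protein kinase, had the largest difference (-1.18, SE 0.187, FDR 0.0142, limma). The CD F1 arrays had 8.53 to 8.94 (median 8.69) and the MD F1 arrays 7.95 to 8.38 (median 8.22), without overlap. In F2 the signal was 8.12 to 8.41 (median 8.19) in CD F2 and 8.09 to 9.18 (median 9.05) in MD F2. Of the MD F2 arrays, 5 lay above all CD F2 arrays and replicate 2 lay below all of them. Without that array the difference was -1.34 (FDR 2.33e-06). Stk32c too is in the study's F1 gene list.

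Tdg encodes thymine DNA glycosylase, which removes oxidized methylcytosine in the base excision route of DNA demethylation. Its signal was 8.49 to 8.91 (median 8.87) in CD F1 and 7.80 to 8.499 (median 8.30) in MD F1. The F2 groups had 7.73 to 8.26 (median 8.02) in CD F2 and 8.19 to 8.62 (median 8.28) in MD F2. The groups overlapped slightly in each generation, and the difference was -0.85 (SE 0.156, FDR 0.0468, limma). The other tested Tdg probes had differences of -0.26 (FDR 0.70) and -0.05 (FDR 0.939), so that the called probe stood alone. Spin1, a reader of methylated histone H3, shows the same disagreement. Its called probe had a difference of -1.04 (SE 0.206, FDR 0.0597), while the other 5 tested Spin1 probes lay between -0.35 and 0.20 and none was called. Man1a, a Golgi mannosidase that trims N-linked glycans and stands in the list of hippocampal field markers, had an F1 effect of -0.55 without overlap between the groups and an F2 effect of 0.19 (difference -0.74, FDR 0.0468). A second Man1a probe had -0.56 in F1 and -0.22 in F2, and its difference of -0.34 was not called (FDR 0.657). Pdzd2, a PDZ domain protein, had -0.36 in F1 and 0.52 in F2 (difference -0.88, FDR 0.0958), with F2 groups that did not overlap.

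**Figure D2:**
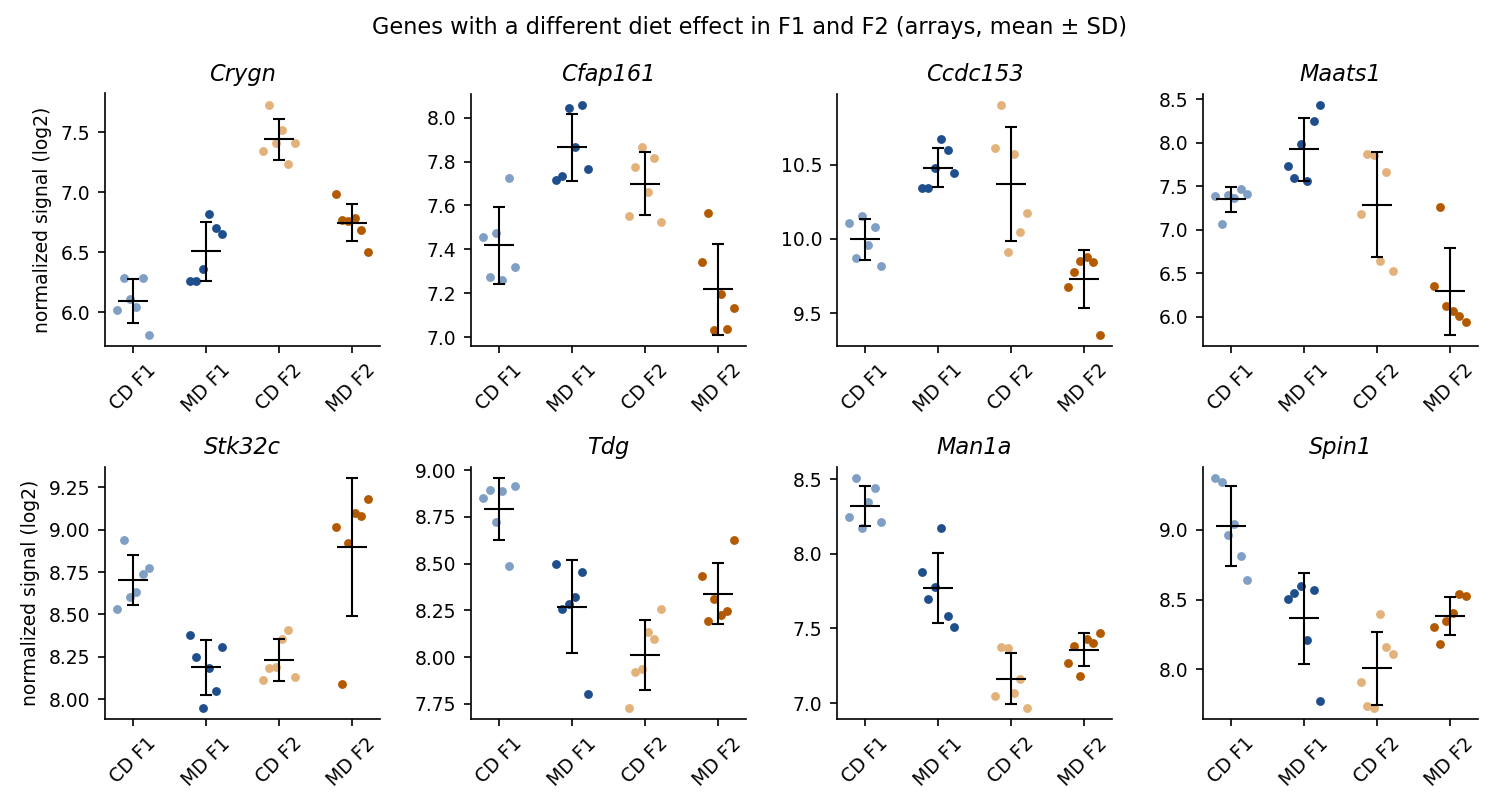
Normalized log2 signal of 8 called genes on each array (points, in replicate order), with mean and SD over 6 arrays per group (bars); the y axes do not start at 0. In the upper row MD F1 lies above CD F1 and MD F2 below CD F2, and in the lower row the order is turned, with MD F2 replicate 2 at 8.09 apart from the other MD F2 arrays for Stk32c.

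The 8 called probes without a symbol comprised 1 with a higher and 7 with a lower response in F1. The one with the smallest p, A_55_P1955497, had 7.51 to 7.97 in CD F1 and 6.36 to 7.18 in MD F1, and its F2 groups overlapped (F1 effect -0.82, F2 effect 0.08, FDR 0.0468). This probe and 1 other of the 8 also stand in the study's F1 gene list, so that their F1 effects are not independent evidence. Another of these probes had the largest difference of all called probes, -3.55, with an SE of 0.698. Over all 22 called probes, CD F1 and MD F1 arrays did not overlap in 10 and CD F2 and MD F2 arrays in 7, where 2.42% and 0.473% of all tested probes were free of overlap in F1 and F2. These counts come from the contrast that chose the probes.

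Within slides, where each diet has 2 arrays, the 3 F1 slides and the 3 F2 slides did not overlap in any of the 22 called probes, where 16.6% of the 24071 probes with a value on every slide were free of overlap. The called probes were chosen by this contrast on these arrays, so that the slide values are a description and no separate support. For Ccdc153 the diet effect was 0.48 to 0.49 on the F1 slides and -0.81 to -0.51 on the F2 slides, and for Cfap161 it was 0.41 to 0.50 and -0.52 to -0.45. The F1 slides had 1 sign in 21 of the 22 probes and the F2 slides in 19, against 40.6% and 31.7% of all. The exception in F1 was Pdzd2, with -0.63 to 0.14. Among the genes with a symbol the exception in F2 was Stk33, with -0.39 to 0.10.

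**Figure D3:**
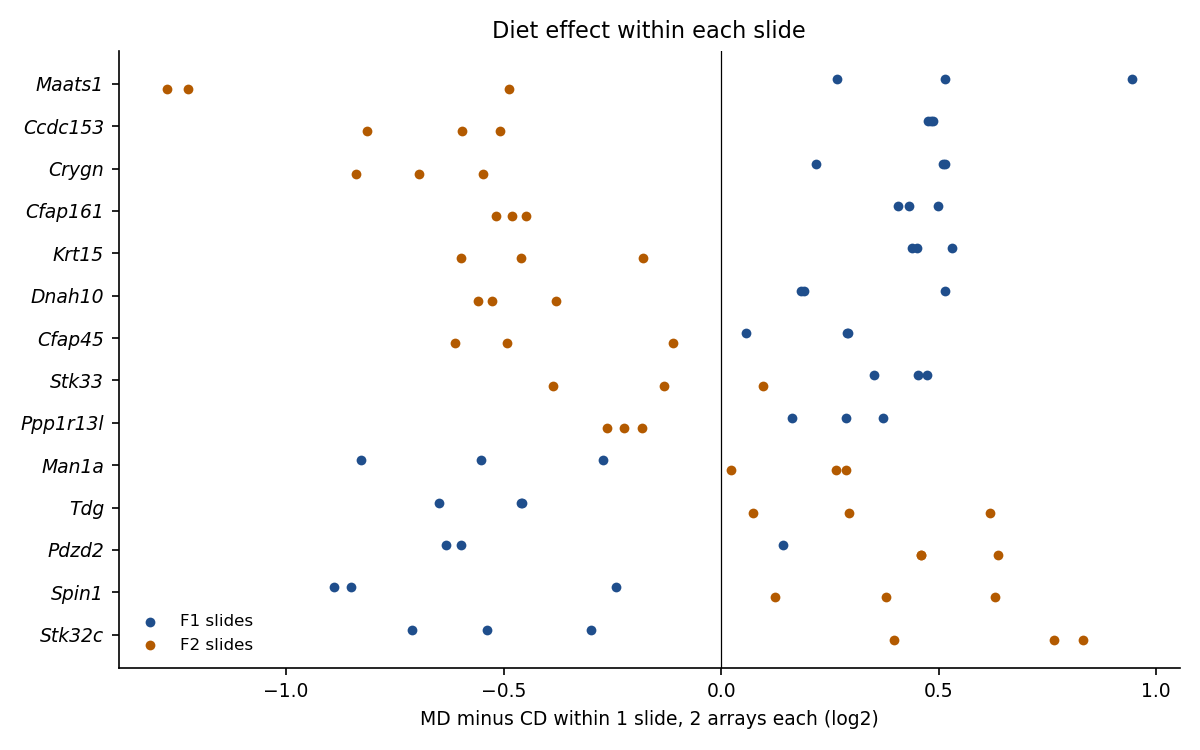
MD minus CD on each slide (x axis, log2, mean of 2 arrays per diet) for the 14 called genes (y axis), with F1 slides in blue and F2 slides in orange. For every gene the 3 blue points lie apart from the 3 orange points, as the choice of the genes by this contrast favours.

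The next 6 genes by p had FDRs from 0.102 to 0.11. Tmem212 (difference 1.13), 1110017D15Rik (1.11) and Kif9, a kinesin of the ciliary central pair (1.11), were higher in F1, as was Sfrp1, a secreted Wnt antagonist (1.25). Megf9 (-0.87) and Cnot6l, a deadenylase subunit (-0.77), were lower. All 3 further Kif9 probes had positive differences, between 0.37 and 1.02, whereas the second Cnot6l probe had -0.11. Kif9 is also in the F1 gene list of the study.

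Motile cilia genes held more calls than any other of the 30 lists. Of 119 genes listed, 96 were on the array and 76 were tested, with the brightest probe standing for each gene. At FDR under 0.1, 4 were higher and 0 lower in F1, where 0.0933% of all genes were called. At an unadjusted p under 0.05, 37 were higher and 2 were lower, where 5.32% of all 13941 genes were higher and 4.17% were lower. The median difference was 0.38, from a median diet effect of 0.23 in F1 and -0.22 in F2, against 0.01 over all genes. Up in F1 and down in F2 were 55 of the 76 genes, compared with 24.8% of all genes. Leaving out any 1 array, the number of lower genes was 1 or 2. The list left out the cilia genes that the study had named from these arrays, but it was written with earlier results of these data known.

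Cilia genes with large differences had several roles. Cfap52, a protein of the microtubule lumen (difference 1.52), Dnaic2, a dynein intermediate chain (0.93), Foxj1, the transcription factor that drives motile cilia formation (1.05), and Rsph1 and Dnah11, of the radial spokes and the outer arms (1.07 and 1.22), had FDRs between 0.112 and 0.353 in limma, with unadjusted p under 0.05. These 5 were chosen after their values were seen. Dnah8 (-0.37) and Spef2 (-1.02) were the 2 genes lower in F1 at p under 0.05, and they were among 6 of the 76 genes that were down in F1 and up in F2. The genes Hydin (0.03), Rfx3 (-0.08) and Tekt2 (0.08) had differences close to 0. On the mean log2 level of the 76 genes, CD F1 arrays lay between 9.22 and 9.36 and MD F1 arrays between 9.36 and 9.68. CD F2 arrays spread from 8.92 to 9.60, and MD F2 arrays lay between 8.89 and 8.97 apart from replicate 2 with 9.30. The MD mean was above the CD mean in F1 (9.48 against 9.28) and below it in F2 (8.99 against 9.28). The sum of linear signals was no guide to the list, since 45.4% of it came from the Cfap300 probe and 28.9% from the Mcidas probe, and its medians were 408003 in CD F1 and 390674 in MD F1.

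Choroid plexus genes had the same signs as most cilia genes, with larger differences. All 19 tested genes of a list of 26 had a positive diet effect in F1 and a negative one in F2, with a median difference of 1.94 (0.43 in F1 and -1.56 in F2). In limma 0 of them passed FDR under 0.1, and 10 were higher in F1 at an unadjusted p under 0.05, where 5.32% of all genes were higher and 24.8% had these signs. Lbp, which encodes a lipopolysaccharide-binding protein, had 2.25 (SE 0.646, FDR 0.229), Ace, the angiotensin-converting enzyme, had 1.29 (SE 0.452), and Calml4 had 2.33 (SE 0.948). With the choroid plexus level as a covariate these became 0.98, 0.59 and 0.41. That level is the mean of the list to which these genes belong, so the fit itself favours such a drop. The summed linear signal of the 19 genes ranged from 39338 to 161938 in CD F1, from 39665 to 325316 in MD F1, from 35686 to 585282 in CD F2 and from 34122 to 434416 in MD F2. The spread between arrays of 1 group was wide, and all 4 groups overlapped. Ttr, which encodes transthyretin, the most prominent choroid plexus product, ranged from 10.20 to 18.27 in CD F2 and from 10.91 to 17.88 in MD F2. In F2, 4 CD arrays had a mean list level of 11.6 to 12.3, whereas CD replicates 4 and 6 had 8.52 and 8.47, and in MD F2 replicate 2 had 11.6 against 8.29 to 9.40 on the others. By the lh or rh code of the F2 labels, whose meaning is not stated, the choroid plexus level was 12.02 to 12.27 in CD lh, 9.39 to 11.6 in MD lh, 8.47 to 11.6 in CD rh and 8.29 to 8.48 in MD rh (3 arrays each), and the cilia level was 9.27 to 9.60, 8.92 to 9.30, 8.92 to 9.40 and 8.89 to 8.97 in the same order. The rh arrays were thus low in each list apart from CD F2 replicate 5, and with the code as a covariate 38 cilia genes and 18 choroid plexus genes were higher in F1 at an unadjusted p under 0.05. No marker of the tested list was missing on any array, since the filter requires signal on all of them.

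The cilia level and the choroid plexus level went together across arrays, with Pearson's r of 0.740 in F1 and 0.942 in F2 (12 arrays each, Spearman's rho 0.678 and 0.895), given as a description, since the arrays of a generation share slides and the 2 lists can share cells. With the choroid plexus level as a covariate, a setting chosen after the data were seen, 25 of the 76 cilia genes were higher in F1 at p under 0.05 instead of 37, and 6 probes were called in all, 4 of them among the 22. Crygn (1.12, FDR 0.027), Cfap161 (0.77, FDR 0.0691), Stk32c (-0.99, FDR 0.0945) and Ccdc153 (1.10, FDR 0.0945) were these 4. Maats1 moved from 1.57 to 1.02 and Kif9 from 1.11 to 0.67. The covariate comes from the same arrays and can share cells with the cilia level, so this fit cannot decide on the amount of tissue. Whether the amount of choroid plexus in the dissected tissue contributed to the cilia differences was not tested. In these bulk samples fewer cells of a type and less RNA per cell cannot be told apart. The count of 37 cilia genes ranged from 32 to 39 when any 1 array was left out, and it was 36 without MD F1 replicate 6, CD F2 replicate 6 and MD F2 replicate 3 together and 11 without normalization, where the median difference of all probes fell to -0.23. The choroid plexus count of 10 was 18 without those 3 arrays. It was 18 without CD F2 replicate 4, CD F2 replicate 6 or MD F2 replicate 2. It was 6 without CD F1 replicate 3, CD F1 replicate 4, MD F1 replicate 1, MD F1 replicate 3, CD F2 replicate 5 or MD F2 replicate 6, 5 without MD F1 replicate 5, CD F2 replicate 1, MD F2 replicate 4 or MD F2 replicate 5, and 4 without CD F2 replicate 2 or CD F2 replicate 3.

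**Figure D4:**
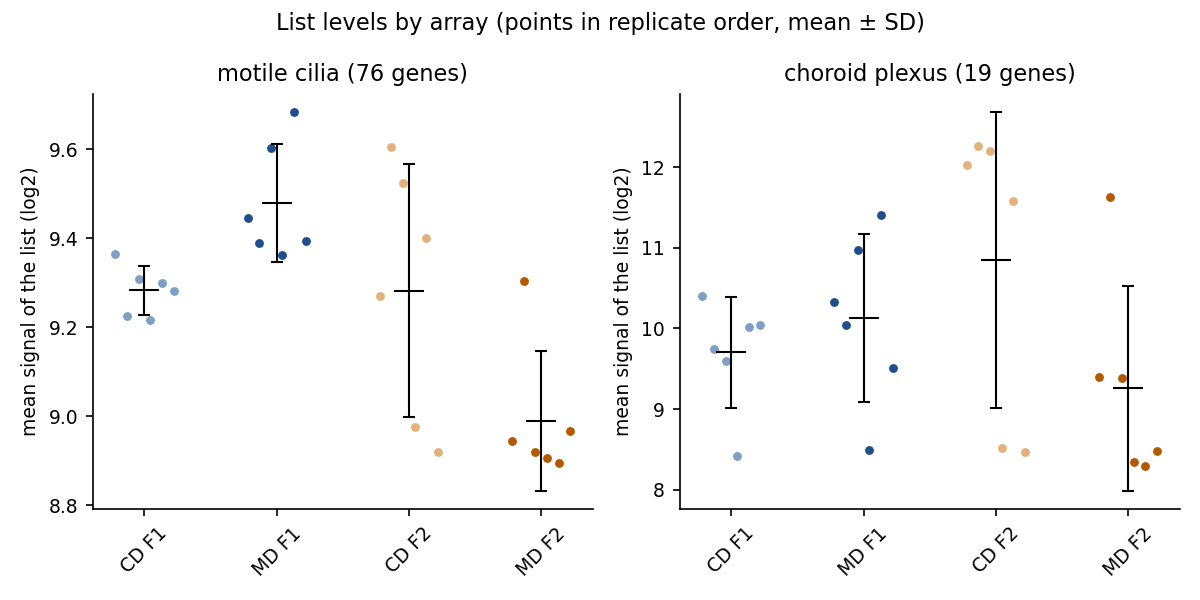
Mean log2 signal of the 76 motile cilia genes (left) and the 19 choroid plexus genes (right) on each array (points, in replicate order), with mean and SD over 6 arrays per group; the y axes do not start at 0. The MD F1 arrays lie above or level with the CD F1 arrays for cilia, and MD F2 replicate 2 stands high in each panel.

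Promoter sequences were examined for a motif known from cilia genes. RFX transcription factors, which act with Foxj1 on cilia genes, bind sites that contain the letters GTTGCC, and these letters were sought on both strands from 250 bases before to 50 after the transcription start (RefSeq, GRCm38.p6). They were found for 33 of the 61 tested cilia genes with a promoter in the table (54.1%), for 14 of the 30 with p under 0.05 and a higher response in F1 (46.7%), for 2 of 12 choroid plexus genes (16.7%) and for 1674 of all 11105 tested genes (15.1%). Among called genes they were found for 5 of 7 with a higher and 2 of 5 with a lower response in F1. The other motif sought on both strands, the CRE (TGACGTCA, a palindrome that shares no match with GTTGCC), was present in 4 of the 61 cilia genes (6.56%) and in 3.39% of the tested genes. Over all 27025 promoters of the table the shares were 14.1% for GTTGCC and 2.03% for the CRE. The stretches below, each 100 bases long, lie upstream of the start and are written 5' to 3' on the strand of the gene. They are shown for called and leading cilia genes with a match and for Crygn without one. Capitals mark GTTGCC or its reverse complement GGCAAC. Cfap161 has 3 matches within 100 bases and its stretch is chr7:83794840-83794939 (minus strand). Those of Dnah10 (chr5:124724985-124725084, plus strand), Ccdc153 (chr9:44240477-44240576, plus strand) and Dnaic2 (chr11:114727319-114727418, plus strand) have 1 each, and Crygn (chr5:24757849-24757948, minus strand) has 0. A match describes letters and is no evidence of binding.
Cfap161: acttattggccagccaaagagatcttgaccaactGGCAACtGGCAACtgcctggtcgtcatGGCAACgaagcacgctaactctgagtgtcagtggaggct
Dnah10: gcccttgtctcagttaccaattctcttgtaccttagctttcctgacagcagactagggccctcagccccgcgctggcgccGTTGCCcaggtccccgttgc
Ccdc153: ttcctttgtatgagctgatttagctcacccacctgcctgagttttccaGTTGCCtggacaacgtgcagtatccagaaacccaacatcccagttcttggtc
Dnaic2: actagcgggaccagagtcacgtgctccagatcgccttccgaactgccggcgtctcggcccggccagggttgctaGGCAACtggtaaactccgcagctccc
Crygn: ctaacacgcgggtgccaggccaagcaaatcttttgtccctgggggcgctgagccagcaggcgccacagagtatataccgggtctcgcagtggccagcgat

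Genes of the one-carbon and methionine cycle, the pathway that the diet feeds, gave no calls. Of 43 tested, 4 were higher and 3 were lower in F1 at an unadjusted p under 0.05, and the median difference was 0.05, where 5.32% of all genes were higher and 4.17% lower. Mat2a, which encodes the catalytic subunit of the enzyme that makes S-adenosylmethionine, had 14.19 to 14.45 (median 14.29) in CD F1 and 13.79 to 14.05 (median 13.89) in MD F1 at its brighter probe, without overlap. In F2 its values were 14.49 to 14.84 (median 14.69) in CD F2 and 14.55 to 14.80 (median 14.66) in MD F2. Its effect of -0.39 in F1 and -0.01 in F2 gave a difference of -0.38 (SE 0.1, FDR 0.189, limma), so that the difference was not called. The dimmer Mat2a probe had -0.29 and -0.37, a difference of 0.08 (SE 0.194, FDR 0.938) whose sign turned without normalization and without MD F2 replicate 6. Folr2, a folate receptor (1.68, FDR 0.269), and Chdh, choline dehydrogenase (0.73, FDR 0.335, limma), had an unadjusted p under 0.05, and moved to 0.63 and 0.40 with the choroid plexus covariate. Folr1, which encodes another folate receptor, is in this list and in the choroid plexus list.

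The Kcnmb2 probe bright enough to be tested, for the beta 2 subunit of BK potassium channels, had -0.0027 in F1 and 0.13 in F2 (difference -0.14, SE 0.192, FDR 0.872, limma). Its arrays overlapped in each generation. It is not the probe in the study's F1 gene list. That Kcnmb2 probe and the Ces3b probe were well above background on 21 of the 24 arrays each and were not tested, so that nothing is given here on the response of the study's Kcnmb2 probe.

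Among 21 genes of the DNA methylation machinery, 1 was called (Tdg), and at an unadjusted p under 0.05, 1 was higher and 2 were lower, counts near the shares of all genes (0.0933% called, 5.32% higher and 4.17% lower). Hells, a chromatin remodeller that DNA methylation needs, had 0.83 in F1 and -0.07 in F2 (difference 0.89, SE 0.349, FDR 0.385). Zbtb38, a methyl-CpG binding protein, had -0.41 and 0.04 (difference -0.46, FDR 0.334). Of 58 histone methyltransferase and demethylase genes 0 were called. Kmt5b (-0.48), Ash1l (-1.06) and Prmt1 (0.66) had unadjusted p under 0.05. The Ash1l difference rested partly on MD F1 replicate 6, without which it was -0.59.

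Postsynaptic scaffold and plasticity kinase genes had 0 calls, with 6 lower and 0 higher of 43 at an unadjusted p under 0.05 (median difference -0.09), and presynaptic vesicle release genes had 0 calls, with 6 lower and 1 higher of 45 (median -0.10). The presynaptic median turned to 0.03 with array weights. MD F1 replicate 6, which stood apart, had the lowest mean log2 level of the F1 arrays in each list, with 11.7 against 11.8 to 12.1 on the other F1 arrays for presynaptic genes and 12.5 against 12.6 to 12.9 for postsynaptic genes, and its part in these counts was not tested. Examples were Dlg4, the postsynaptic scaffold PSD-95 (-1.41, FDR 0.278), and Camk2a, a kinase of synaptic plasticity (-0.35, FDR 0.357). Others were Nsf, the ATPase that recycles SNARE complexes (-0.38, FDR 0.268), and Rab3a, a vesicle GTPase (-0.32, FDR 0.281). The effects in F1 and F2 were -0.34 and 1.07 for Dlg4, -0.06 and 0.29 for Camk2a, and -0.06 and 0.26 for Rab3a. At these probes the rise in MD F2 was the larger part, whereas Nsf had -0.34 in F1 and 0.04 in F2. A second Camk2a probe had -0.57 in F1 and 0.20 in F2 (difference -0.77, FDR 0.417, limma), with the larger part in F1. Potassium channels had 4 lower and 0 higher of 70, with Kcnh5 at -0.65 and Kcnk10 at -0.45, and their median of -0.09 turned to 0.01 with the choroid plexus covariate. The shares of lower genes, 6 of 43 and 6 of 45, were above the background of 4.17% lower (5.32% higher), but each rests on few genes. GABA receptor, synthesis and transport genes (median -0.12, 0 higher and 2 lower of 24) and glutamate receptors (median -0.06, 0 higher and 1 lower of 24) held no higher genes either. The calcium, sodium and HCN channel list had 2 higher and 0 lower of 36, Cacna1s (0.46) and Cacna1i (0.37), and a second Cacna1i probe had -0.14.

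Further lists had few genes at p under 0.05, where 5.32% of all genes were higher and 4.17% lower in F1. Immediate early genes had 1 higher of 38 (Egr1, 0.41), ribosomal proteins 1 lower of 79 (Rpl30, -0.21), oxidative phosphorylation genes 1 lower of 77 (Ndufb8, -0.29) and imprinted genes 2 lower of 30 (Inpp5f, -0.62 from 23 arrays and -1.05 with outlier spots kept, and Zdbf2, -0.42). Over the 25 lists other than cilia, choroid plexus, the study's own list, sex-linked genes and reference genes, median differences lay between -0.12 and 0.08, with 2 calls (Tdg and Man1a) in 817 list entries. The called share over all genes was 0.0933%. In the study's F1 gene list, chosen on these F1 arrays, 14 of 20 genes were tested and 3 were called, Stk33 and Ccdc153 higher and Stk32c lower. With the probes without a symbol, 5 of the 22 called probes stand in that list.

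Markers of the tissue were examined for the same contrast. Hippocampal field markers, the defining genes of the labelled tissue, were tested for 23 of 24 genes and had mean log2 levels of 11.3 to 11.7 over all arrays. They had 1 call (Man1a), where 0.0933% of all genes were called, and a median difference of -0.07. Astrocyte genes (median -0.12, with Slc1a2 at -0.61), oligodendrocyte genes (-0.04), microglia genes (0.01, with Olfml3 at -0.97, at -0.63 without MD F1 replicate 6 and at 0.21 for a second probe), interneuron genes (-0.11, with Cck at -0.28) and vascular and meningeal genes (0.08, with Igfbp2 at 1.29, and at 0.33 with the choroid plexus covariate) had 0 calls. The striatum list had Drd1 at -0.67 and Ppp1r1b at 0.65, which moved to -0.59 and 0.19 with that covariate, and the thalamus list had 0 genes at p under 0.05. The reference genes Actb (-0.04), B2m (0.11), Gapdh (-0.09) and Gusb (0.02) had differences within their standard errors of 0.102 to 0.157 in limma, and their signs changed under other normalizations.

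**Figure D5:**
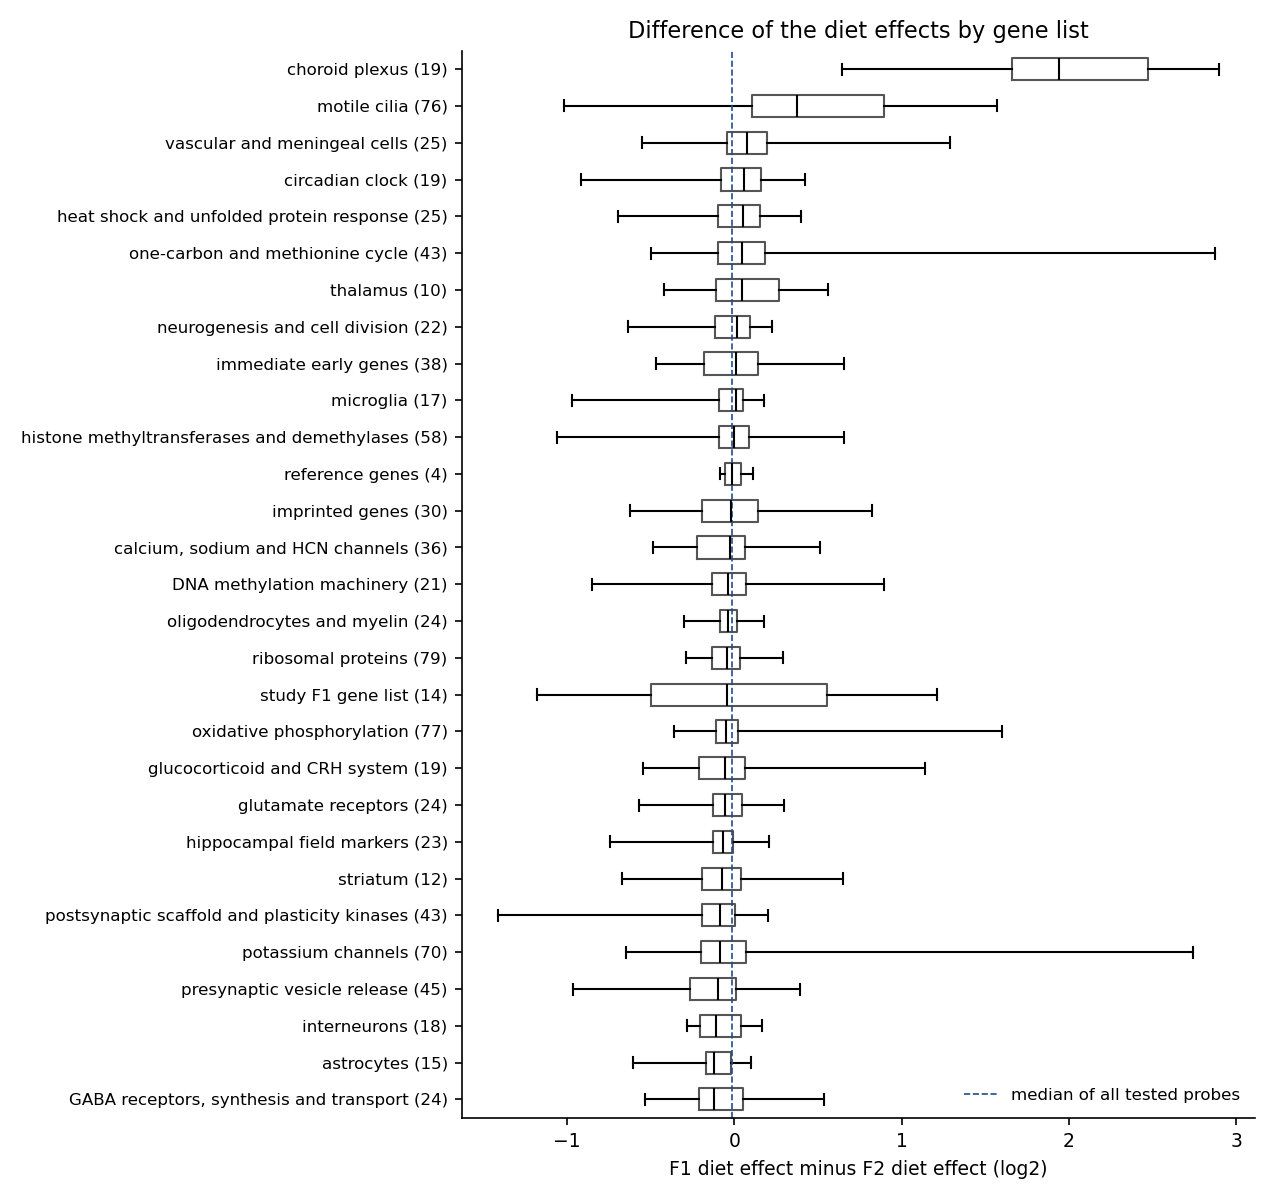
Difference of the diet effects (x axis, F1 minus F2, log2) for the tested genes of each list (y axis, number of genes in parentheses), as boxes from the lower to the upper quartile with the median as a line and whiskers to the lowest and highest gene; the dashed line is the median of all tested probes. The choroid plexus box lies wholly above 0, at a median of 1.94, followed by motile cilia at 0.38, and all other medians lie between -0.12 and 0.08.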

How the data were processed

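Hippocampal RNA was hybridised to 1-colour (Cy3) Agilent arrays. Per the file headers, Feature Extraction 10.7.3.1 made the deposited intensity values (processed signal: background-subtracted, detrended, linear, not scaled between arrays). The table of the authors' processed intensity values served as an alternative. Control spots and spots with outlier flags were left out, repeat spots were averaged per probe on the log2 scale, the 24 arrays were quantile-normalized together, and probes well above background on all 24 arrays were kept, with values on at least 2 arrays per group (352 of them on fewer than 24). The 4 group means were fitted by limma 3.58.1 (R 4.3.3), and calls were made at a Benjamini-Hochberg FDR under 0.1; the design was tested on simulated data. Of 39429 probes 26062 were given a symbol (RefSeq, GRCm38.p6), 26055 of them by accession, 4 by symbol and 3 by synonym. In the lists, 11 genes were matched by an older symbol.

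Named were the called probes, the next by p up to 20, the probes of Mat2a, Kcnmb2, Crygn, Cfap161, Ces3b, Stk32c and Ccdc153, up to 3 genes with p under 0.05 per list, and 4 reference genes; genes outside this rule (Cfap52, Dnaic2, Foxj1, Rsph1, Dnah11, Dnah8, Spef2, Hydin, Rfx3, Tekt2, Ttr, Folr1, Cfap300 and Mcidas) were chosen after their values were seen. The 30 lists and the named genes were chosen with earlier results of these data known. The list of sex-linked genes had 0 tested genes. Alternatives covered normalization, background (normexp with offset 50, on the median signal), filter, flags, slide, replicate number, sex measure, label code, choroid plexus level, variance model, threshold and left-out arrays. The number of arrays limits the precision.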

Additional observations from a re-analysis of the deposited data

Results flagged for a closer look

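The diet effect differed between the generations, by the interaction test in limma, at 22 probes. The differences (F1 effect minus F2 effect, log2) were 1.57 for Maats1, 1.12 for Ccdc153, 1.11 for Crygn, 0.93 for Cfap161, 0.89 for Krt15, 0.79 for Dnah10, 0.62 for Cfap45, 0.57 for Stk33 and 0.50 for Ppp1r13l on the higher side. On the lower side they were -1.18 for Stk32c, -1.04 for Spin1, -0.88 for Pdzd2, -0.85 for Tdg and -0.74 for Man1a. The probes without a symbol had 0.84, -0.80, -0.80, -0.84, -0.89, -0.90, -1.48 and -3.55.

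Values far from the rest of their group of 6 arrays were looked for in 76 groups, where chance gives about 1 in 20, and 8 were found. MD F2 replicate 2 accounted for 4 of them, with a log2 signal of 8.09 for Stk32c and 7.27 for Maats1, a mean motile cilia level of 9.30 and a mean choroid plexus level of 11.6. MD F1 replicate 6 had 7.80 for Tdg and 10.22 for Ppp1r13l. CD F1 replicate 2 had 7.07 for Maats1, and MD F2 replicate 6 had 9.91 for the dimmer Mat2a probe.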

How the results depend on the processing

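The 22 calls became 6 with scaling to the 75th percentile, 2 without normalization, 6 with normexp background, 5 without the filter on dim probes, 14 with the brightest probe of each gene, 10 at an FDR under 0.05 and 6 with the choroid plexus level as a covariate (added after seeing the data). They became 38 with the slide as a block, 120 with the lh or rh code of the F2 labels as a covariate, 1930 with array weights and 88 without the 3 arrays that stood apart; leaving out single arrays gave 4 to 112. The replicate number as a block gave 146, but same-numbered CD and MD arrays correlated at -0.44 to 0.45 and 3 of 12 correlated best with their own number, so that the numbers do not pair the samples. The cause of these shifts was not tested. With the sex measure as a covariate, of the 22 calls 20 were retained among 29. Signs turned for genes that were not called: without normalization Hsph1 had -0.0022, B2m -0.11, the dimmer Mat2a probe -0.19 and Gusb -0.199; with the 75th percentile Gapdh had 0.0106 and Actb 0.0946; with array weights Gapdh had 0.0914, Actb 0.0796 and Gusb -0.0497; without the 3 arrays Gapdh had 0.0011 and Gusb -0.0168; with the choroid plexus level Actb had 0.0971 and Gusb -0.0135. Left-out arrays gave -0.0736 to 0.175 for that Mat2a probe, -0.103 to 0.0271 for Actb and -0.0318 to 0.0469 for Gusb. Probes close to background on any array were not tested, so that low genes are not covered.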
